A study of Homo sapiens with 6 samples.

Results

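The 49 genes described here encode proteins of G2 phase and mitosis, taken from a fixed list of symbols. That list was chosen with earlier results of these data known. Each symbol matched 1 row of a table of 34371 features by its Ensembl gene ID. The cells were ME-1, a human acute myeloid leukaemia line with the CBFB::MYH11 fusion. One group (ME-1_CTRL, 3 libraries) had been transduced with an empty vector and the other (ME-1_SPNS2, 3 libraries) with a vector for SPNS2, a transporter that carries sphingosine-1-phosphate out of cells. Both groups had been transduced and selected, and polyadenylated RNA was then sequenced. Both groups come from 1 cell line. The sources used here do not give the promoter of the vector, the selection agent or the culture time. Nothing in the labels ties the libraries of a group to separate cultures, so p-values measure the spread between these libraries, which may be technical.

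During G2 a cell stores the proteins it needs to divide. Cyclins A and B bind and activate CDK1, which Polo and Aurora kinases reinforce, and the chromosomes condense and attach to the spindle through kinetochores. A checkpoint holds back the anaphase-promoting complex (APC/C) until all chromosomes are attached. The APC/C, a ubiquitin ligase, then marks cyclin B and securin for destruction, separase cuts cohesin, and the cell divides. Most of the transcripts peak in G2 and mitosis. MuvB, a protein core, represses them as part of the DREAM complex in resting cells and activates them together with B-MYB (MYBL2) and FOXM1 in cycling cells. In a culture of dividing leukaemia cells the summed level of such transcripts depends on the share of cells in G2 and mitosis and on the transcript content of each cell. In bulk RNA, fewer cells in that phase and less RNA per cell cannot be told apart.

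Library totals lay between 28605187 and 38489992 counts. A count of 0 leaves room for about 3 counts, which is 0.0779 to 0.105 per 1000000 counts of the unscaled totals. All other CPM values (counts per 1000000) are TMM-scaled. The vector SPNS2 sequence has its own row, with 24792 to 25752 counts in the SPNS2 libraries and 0 to 9 in the empty vector libraries. All 7 myeloid markers were detected, from MPO, the primary granule peroxidase, at 25135 to 26543 CPM down to CEBPA and CD33 at mean levels of 31.9 and 37.4 CPM with the empty vector. Of the 7, CD33 (log2 fold change -0.71) and CD34 (-0.25) were called lower in SPNS2, KIT (0.55) and CSF3R (0.26) were called higher, and MPO, SPI1 and CEBPA were not called. MS4A1, HBB, ALAS2 and KRT19, markers of B cells, erythroid cells and epithelium, had 0 counts. The summed CPM of the 3 markers in each other list was 3.65 to 3.81 with the empty vector and 2.78 to 3.65 with SPNS2 for B cells, 0.590 to 0.773 and 0.895 to 1.08 for T cells, 0.0621 to 0.176 and 0.0593 to 0.0926 for erythroid cells and 0.105 to 0.156 and 0.0318 to 0.185 for fibroblasts. The epithelial list held 119 to 128 and 141 to 143 CPM, nearly all of it EPCAM. CD3E (T cells) and EPCAM were called higher in SPNS2. The part of these marker changes, myeloid ones included, in the results below was not tested.

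G2 and mitosis genes were lower in the SPNS2 libraries, almost throughout and by small amounts. Of the 49 genes, 48 passed the filter on low counts, 34 fell, 0 rose and 14 did not pass the test (edgeR quasi-likelihood test, Benjamini-Hochberg adjusted p under 0.05 over 13308 features). Among all features tested, 12.6% were called lower and 11.9% higher. No member with a positive log2 fold change had an unadjusted p under 0.05. The log2 fold change was negative for 47 of the 48 genes, and its median was -0.20, a level 13.1% lower, against 0.0026 over all features tested. The log2 fold changes ran from -0.35 (AURKB) to 0.01 (NUF2), and 0 genes changed by more than 0.5 on the log2 scale. All 3 SPNS2 libraries lay below all 3 empty vector libraries for 38 of the 48 genes, a pattern that 20.3% of all tested features showed, and 0 genes had all SPNS2 libraries above (19.8% of all tested features). DESeq2 called 31 of the genes lower, against 10.2% of the features it tested. No fit with 1 library left out gave fewer than 30 or more than 33 genes lower, and 29 of the 34 called genes were called in each of those 6 fits.

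The transcripts of all 49 genes together made up 3289, 3317 and 3274 CPM in the empty vector libraries and 2891, 2852 and 2865 CPM in the SPNS2 libraries. The groups did not overlap, and the mean sum was 12.9% lower with SPNS2. TOP2A (12.1%), MKI67 (8.60%) and MYBL2 (7.53%) supplied the largest shares of the 424 CPM difference, which otherwise spread over many genes. Levels between genes are compared as CPM per kilobase of the longest coding GENCODE 29 transcript. On that scale MYBL2 (56.6 CPM per kilobase), CDC20 (55.01), TOP2A (45.6) and UBE2C (41.6) were the most abundant in the empty vector libraries. The motor CENPE (3.77) and the phosphatase CDC25C (3.88) were the least abundant of the tested genes. Across the 48 genes, the log2 fold change and the mean CPM with the empty vector had a Spearman rho of -0.16. That level is also the base of the fold change, so the 2 values share noise. The rho is a description over genes that share the same 6 libraries.

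**Figure D1:**
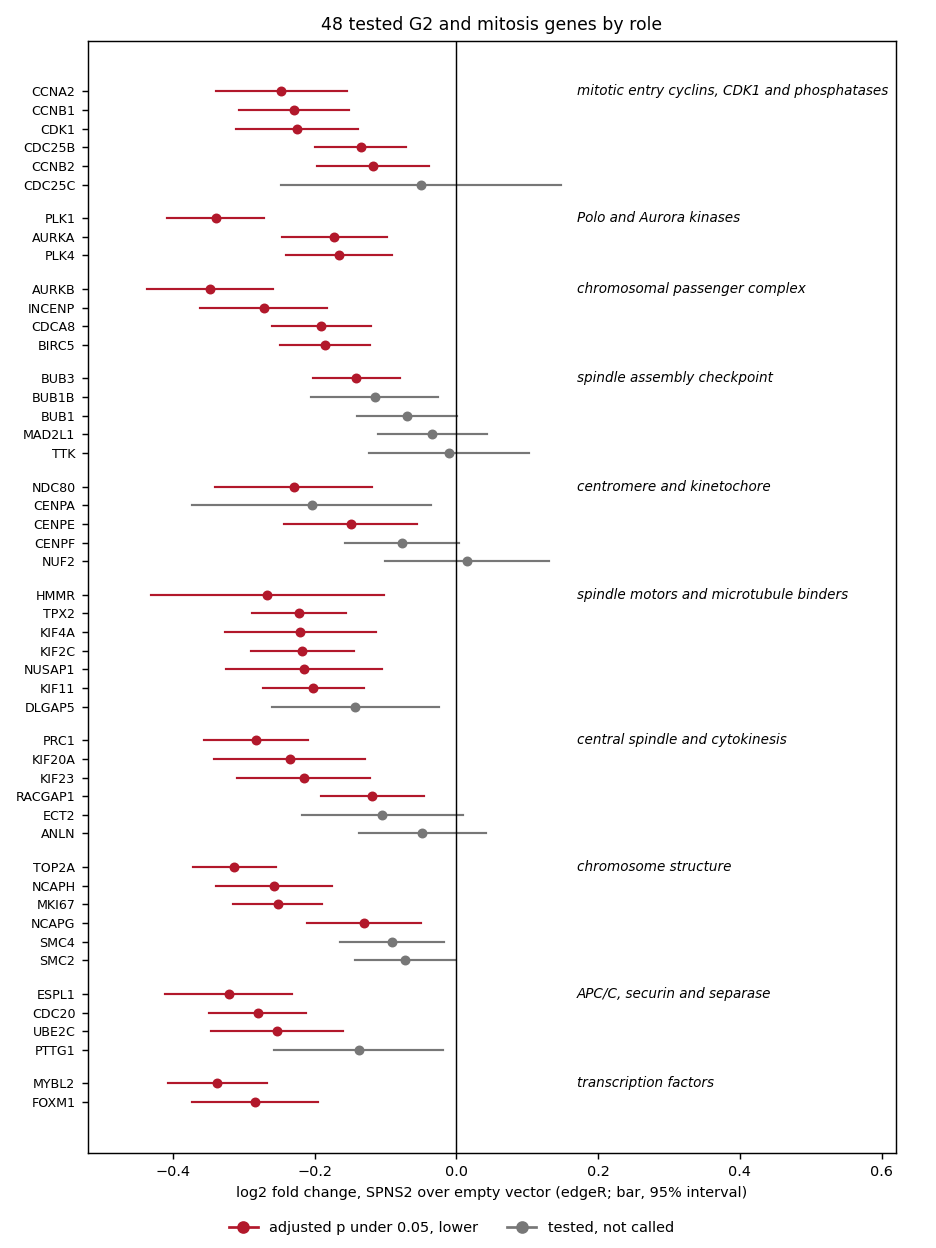
Log2 fold changes of the 48 tested genes by role (horizontal axis, SPNS2 over empty vector), with points for the edgeR estimate and bars for its 95% interval. Red points are the 34 genes called lower; grey points are the 14 not called, of which NUF2 alone lies to the right of 0.

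What the members share in sequence was looked up in the RefSeq promoter windows (GRCh38.p14), which run from 250 bases before a gene's start to 50 after it. These windows were found for 41 of the 49 genes. AURKA, BIRC5, BUB3, FOXM1, RACGAP1, TPX2, TTK and UBE2C have no entry. The cell cycle genes homology region (CHR, TTTGAA on either strand), the element read by MuvB, occurred in 30 of 41 members (73.2%), against 13.8% of 10119 tested genes with a window, 18.2% of all 27305 genes in that table and 1 of 39 replication genes (2.56%). The CCAAT box (CCAAT on either strand), read by NF-Y, occurred in 75.6% of members and in 43.2% of tested genes. Both motifs stood together in 22 members (53.7%) and in 5.70% of tested genes. E2F-like cores (TTCGCGC or TTGGCGC, either strand) were found in 17.1% of members, 53.8% of the replication genes and 10.4% of tested genes. The CHR matches lay close to the start: 46.3% of members had one whose first base fell in the last 50 bases before the start, against 2.54% of tested genes, a limit chosen after the positions were seen. These are matches of letters, not sites shown to be bound.

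Stretches of 130 bases that end at the base before the start, on each gene's own strand, show the arrangement in 6 members that fell (PLK1, CDC20, PRC1, ESPL1, CCNB2, CDCA8) and 2 that were not called (BUB1B, CENPA). They were chosen by hand after the matches were seen, and each holds 1 CHR. Capitals mark CHR and CCAAT matches on either strand, and an inverted CCAAT box reads ATTGG. In CDCA8 a CHR overlaps an inverted CCAAT box. The regions, in the same order, are chr16:23678759-23678888 (+), chr1:43358851-43358980 (+), chr15:90994536-90994665 (-), chr12:53268169-53268298 (+), chr15:59105016-59105145 (+), chr1:37692386-37692515 (+), chr15:40160939-40161068 (+) and chr2:26785926-26786055 (+).
PLK1: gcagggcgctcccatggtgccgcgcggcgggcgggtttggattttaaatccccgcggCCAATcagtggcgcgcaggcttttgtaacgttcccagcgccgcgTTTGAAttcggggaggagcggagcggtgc
CDC20: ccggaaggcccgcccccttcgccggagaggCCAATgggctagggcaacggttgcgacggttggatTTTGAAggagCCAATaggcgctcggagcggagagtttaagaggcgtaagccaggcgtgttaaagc
PRC1: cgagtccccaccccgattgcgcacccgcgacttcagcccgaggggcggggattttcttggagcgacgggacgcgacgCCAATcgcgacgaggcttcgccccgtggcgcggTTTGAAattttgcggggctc
ESPL1: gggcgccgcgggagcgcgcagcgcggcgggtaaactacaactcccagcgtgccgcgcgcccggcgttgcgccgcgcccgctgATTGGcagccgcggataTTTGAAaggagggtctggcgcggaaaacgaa
CCNB2: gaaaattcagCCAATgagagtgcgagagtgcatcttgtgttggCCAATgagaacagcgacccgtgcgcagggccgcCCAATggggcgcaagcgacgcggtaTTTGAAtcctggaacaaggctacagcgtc
CDCA8: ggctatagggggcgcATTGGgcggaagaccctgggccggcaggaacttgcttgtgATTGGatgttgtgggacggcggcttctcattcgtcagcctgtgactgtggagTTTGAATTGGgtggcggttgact
BUB1B: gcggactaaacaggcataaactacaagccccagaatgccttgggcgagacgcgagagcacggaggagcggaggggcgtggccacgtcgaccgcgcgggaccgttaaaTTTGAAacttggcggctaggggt
CENPA: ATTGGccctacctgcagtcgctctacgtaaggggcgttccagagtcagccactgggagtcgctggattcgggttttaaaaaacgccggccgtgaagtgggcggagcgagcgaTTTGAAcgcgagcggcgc
BUB1B and CENPA carry the same TTTGAA as the 6 members that fell, and of these 8 stretches that of BUB1B alone holds no CCAAT box.

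**Figure D2:**
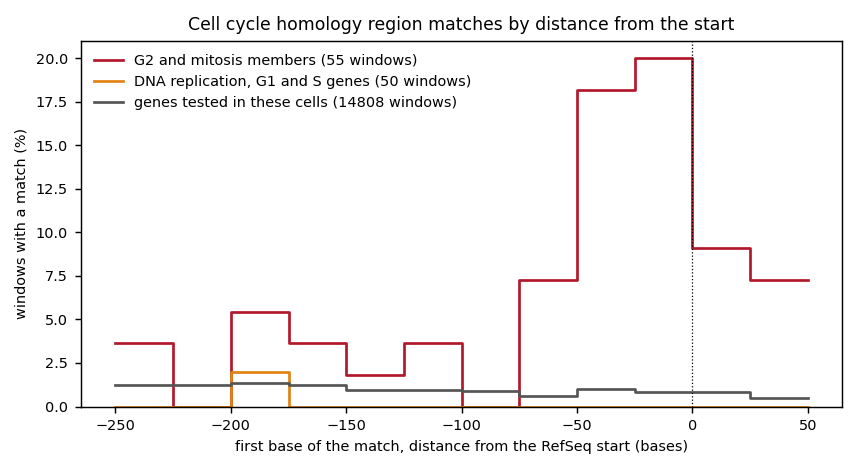
Share of promoter windows (vertical axis, %) with a CHR match whose first base lies in each 25-base bin of distance from the RefSeq start (horizontal axis). The 55 windows of the members (red) hold a match in 10 and 11 cases in the last 2 bins before the start, while the windows of all tested genes (grey) stay near 1% and replication genes (orange) are at 0 outside 1 bin.

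CHR matches were present in 18 of 27 called members with a window (66.7%) and in 11 of 13 tested members that were not called (84.6%). The median log2 fold change was -0.20 in the 29 tested members with a CHR and -0.23 in the 11 without. Some of those 11 carry a CHR variant (TTCGAA or CTTGAA, either strand). With the variants counted as well, the median was -0.20 in 33 members with a match and -0.23 in 7 without. For the CCAAT box it was -0.22 in 30 members with and -0.12 in 10 without it. These splits were made on few genes and were not tested.

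MYBL2 and FOXM1, the transcription factors of the set, both fell. MYBL2 (B-MYB), which joins MuvB to activate G2 genes, was at 157, 149 and 153 CPM in the empty vector libraries and 125, 118 and 121 CPM in the SPNS2 libraries. Its log2 fold change of -0.34 (an SE of 0.0318, edgeR adjusted p = 3.97e-05) was among the 3 lowest of the set, and the groups stood well apart. FOXM1, the forkhead factor that drives mitotic genes, was at 37.0, 37.0 and 38.6 CPM and fell to 31.5, 29.7 and 31.2 CPM (log2 fold change -0.28 with an SE of 0.0404, adjusted p = 0.00054).

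The kinase that starts mitosis and its cyclins fell to a like degree. CDK1 was at 62.1, 64.7 and 66.7 CPM with the empty vector and 56.7, 52.7 and 56.1 CPM with SPNS2 (log2 fold change -0.23 with an SE of 0.0393, edgeR adjusted p = 0.00193). CCNB1, cyclin B1, the main partner of CDK1 at mitotic entry, went from 75.1, 72.7 and 77.4 to 64.0, 62.1 and 66.0 CPM (-0.23, adjusted p = 0.000908). CCNA2, cyclin A2, which acts in S phase and G2, went from 43.5, 46.0 and 43.1 to 39.1, 36.6 and 35.9 CPM (-0.25, adjusted p = 0.00161). In all 3 genes every SPNS2 library was below every empty vector library. CCNB2, the second B-type cyclin, was at 54.6, 58.0 and 56.5 CPM and at 52.5, 52.9 and 50.3 CPM, a smaller fall of -0.12 (adjusted p = 0.0339). The groups of CCNB2 did not overlap, but its call was lost without empty vector library 2 (adjusted p = 0.120) or 3 (0.0820) and without SPNS2 library 1 (0.0674), 2 (0.0523) or 3 (0.119). Of the phosphatases that switch CDK1 on, CDC25B fell from 81.2, 79.6 and 80.7 to 72.9, 72.5 and 74.6 CPM (-0.13, adjusted p = 0.00658). CDC25C, the least abundant tested gene by CPM, was at 8.25 ± 0.794 and 7.97 ± 0.212 CPM (SD, n = 3 each) with overlapping groups, and its interval of -0.25 to 0.15 on the log2 scale holds changes as large as those of CDK1.

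Of the Polo and Aurora kinases in the set, AURKB and PLK1 had the largest falls. PLK1, the Polo kinase of mitotic entry and spindle assembly (ENSG00000166851.15), went from 90.1, 87.8 and 86.6 to 68.9, 71.2 and 69.0 CPM (log2 fold change -0.34 with an SE of 0.0310, edgeR adjusted p = 3.28e-05). The lowest empty vector library was above the highest SPNS2 library by more than the range within either group. PLK4, which controls centriole duplication, fell from 47.1 ± 0.568 to 42.0 ± 1.11 CPM (SD, n = 3 each), a log2 fold change of -0.17. AURKA, the Aurora kinase of spindle poles, fell by the same amount, from 53.3, 52.9 and 54.6 to 46.6, 47.0 and 49.1 CPM (-0.17, adjusted p = 0.00382). AURKB, its relative at the centromere, fell from 32.3, 33.1 and 33.3 to 25.5, 26.0 and 26.0 CPM (-0.35 with an SE of 0.0405, adjusted p = 0.000157), a level 21.4% lower and the largest fall of the set. The difference between AURKA and AURKB was not tested.

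AURKB works in the chromosomal passenger complex, which corrects faulty attachments and later guides cytokinesis, and all 4 of its subunits fell. INCENP, the scaffold that activates AURKB, went from 61.9, 60.8 and 58.3 to 52.3, 50.1 and 47.6 CPM (log2 fold change -0.27, edgeR adjusted p = 0.000738). BIRC5 (survivin) went from 92.7, 94.6 and 95.5 to 82.8, 81.7 and 84.1 CPM, and CDCA8 (borealin) from 55.7, 57.1 and 54.8 to 48.7, 49.6 and 48.4 CPM. Both fell by 0.19 on the log2 scale. No SPNS2 library reached the level of an empty vector library for any of the 4 subunits, and their summed level was 14.7% lower.

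**Figure D3:**
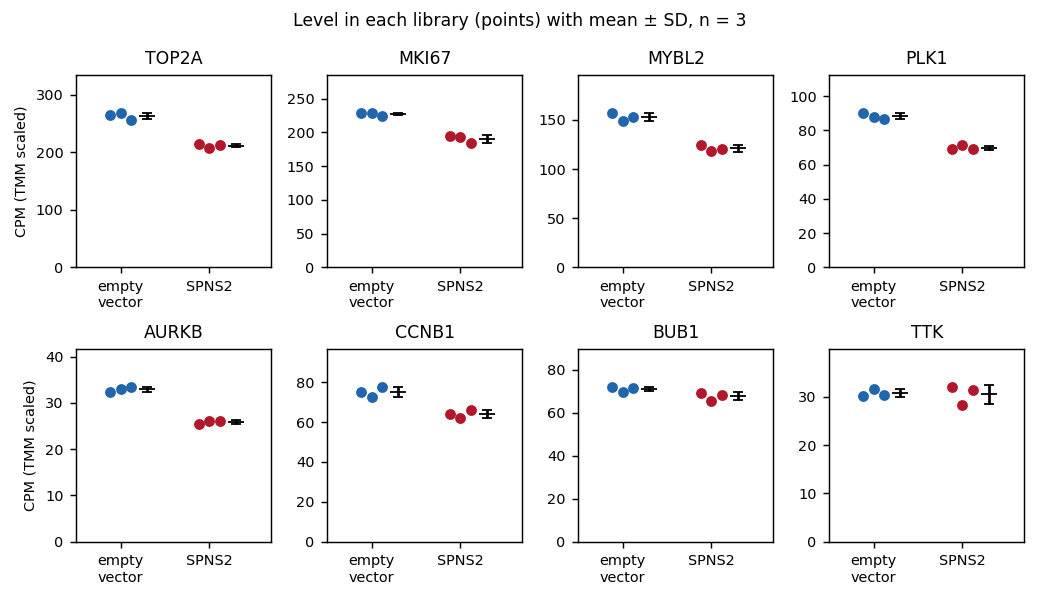
CPM in each library for 8 members (points; empty vector blue, SPNS2 red), with mean ± SD of 3 libraries at the side and axes that start at 0. TOP2A, MKI67, MYBL2, PLK1, AURKB and CCNB1 show separate groups, BUB1 groups nearly touch, and TTK groups overlap.

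Spindle checkpoint genes, which delay anaphase until every kinetochore is attached, had the smallest median log2 fold change of the 10 roles, -0.07. Of 5, only BUB3 fell, from 195, 204 and 197 to 183, 177 and 179 CPM (log2 fold change -0.14, edgeR adjusted p = 0.00397). BUB1, a kinase of the kinetochore, was at 71.8, 69.8 and 71.5 CPM and at 69.3, 65.7 and 68.2 CPM (-0.07, adjusted p = 0.143), and BUB1B (BubR1) at 39.7, 38.004 and 39.5 CPM and at 36.0, 37.6 and 34.7 CPM (-0.12, adjusted p = 0.0594). Neither passed, although the groups did not overlap, and BUB1B passed without SPNS2 library 2 (adjusted p = 0.0398). TTK (MPS1), the kinase that starts checkpoint signalling, was at 30.2, 31.7 and 30.4 CPM and at 31.9, 28.3 and 31.3 CPM. Its log2 fold change of -0.01 has a 95% interval of -0.12 to 0.10, which leaves out a fall of the size seen for PLK1 or AURKB. MAD2L1 (MAD2), the inhibitor of CDC20, was at 71.6 ± 0.490 and 69.9 ± 2.81 CPM (SD, n = 3 each; interval -0.11 to 0.04). The summed level of the 5 genes was 6.53% lower, beside 14.7% for the passenger complex. The difference between these groups of genes was not tested.

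Among 6 centromere and kinetochore genes, 2 fell and 3 of the other 4 were tested and not called. NDC80 (HEC1), which grips microtubules, fell from 25.9, 27.5 and 24.7 to 22.0, 21.9 and 22.6 CPM (log2 fold change -0.23, edgeR adjusted p = 0.00715). CENPE, a kinetochore motor, fell from 31.8, 33.6 and 32.1 to 28.4, 29.7 and 29.7 CPM (-0.15, adjusted p = 0.0258). The call of CENPE was lost without empty vector library 2 (adjusted p = 0.0679) or 3 (0.0537) and without SPNS2 library 1 (0.102) or 3 (0.0516). CENPA, the histone variant that marks centromeres, was at 14.3, 15.6 and 15.9 CPM and at 14.7, 12.4 and 12.5 CPM (-0.20, adjusted p = 0.0757). SPNS2 library 1 lay within the empty vector range for CENPA, and without that library CENPA was called (-0.29, adjusted p = 0.0187). CENPF was at 94.3 ± 4.37 and 89.4 ± 1.53 CPM (SD, n = 3 each; -0.08) and was called without empty vector library 3 (-0.11, adjusted p = 0.0410).

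The subunits of the NDC80 complex, which joins kinetochores to microtubules, were not all called lower, and differences between them were not tested. NUF2, which pairs with NDC80, was at 17.2, 16.7 and 17.1 CPM and at 16.4, 17.3 and 17.9 CPM, and its interval ran from -0.10 to 0.13 on the log2 scale around 0.01. SPC24, a subunit outside the set, fell from 30.2 ± 1.23 to 24.5 ± 1.34 CPM (SD, n = 3 each), a log2 difference of -0.31 (edgeR adjusted p = 0.00177). SPC25, which pairs with SPC24, was the member that did not pass the filter, with 0, 11 and 8 counts in the empty vector libraries and 0, 22 and 4 counts in the SPNS2 libraries. At 0 to 0.700 CPM it had no usable level in these libraries, and whether the counting lost reads of this gene was not tested.

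Genes for spindle motors and microtubule binders fell in 6 of 7 cases. KIF11 (Eg5), the motor that pushes spindle poles apart, went from 66.2, 68.7 and 69.2 to 59.1, 60.3 and 58.0 CPM (log2 fold change -0.20, edgeR adjusted p = 0.00115). KIF2C (MCAK), which takes microtubules apart at centromeres, went from 85.2, 79.9 and 84.3 to 71.0, 72.5 and 71.2 CPM (-0.22, adjusted p = 0.000819). TPX2, which activates AURKA on the spindle, went from 121, 127 and 124 to 105, 106 and 108 CPM (-0.22, adjusted p = 0.0004). The groups of these 3 genes were separate. KIF4A, a chromosome-bound motor, fell from 29.7 ± 0.331 to 25.5 ± 1.36 CPM, and NUSAP1, which bundles microtubules near chromosomes, from 29.6 ± 1.40 to 25.5 ± 0.909 CPM (SD, n = 3 each). HMMR, a spindle-pole protein, varied widely between libraries, at 23.9, 28.6 and 27.6 CPM with the empty vector and 21.6, 24.1 and 20.7 CPM with SPNS2. Empty vector library 1 was below SPNS2 library 2, which makes HMMR the only called member with overlapping groups (-0.27, adjusted p = 0.0236). HMMR did not pass without empty vector library 2 (adjusted p = 0.0789) or 3 (0.0797) and without SPNS2 library 1 (0.0852) or 3 (0.0958). DLGAP5 (HURP), a spindle-assembly factor, was at 24.5 ± 1.197 and 22.2 ± 1.003 CPM (SD, n = 3 each; edgeR adjusted p = 0.0768) and was called without empty vector library 2 (0.0342).

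In the set for the central spindle and cytokinesis, 4 of 6 genes fell. PRC1, which bundles the overlapping microtubules between separating chromosomes, went from 79.6, 80.0 and 81.7 to 64.9, 64.7 and 68.8 CPM (log2 fold change -0.28 with an SE of 0.0336, edgeR adjusted p = 0.000175). The motors KIF20A and KIF23 fell from 33.5 ± 1.88 to 28.5 ± 0.592 CPM and from 33.6 ± 1.18 to 28.9 ± 0.598 CPM (SD, n = 3 each). RACGAP1, the partner of KIF23 in centralspindlin, was at 90.9, 85.9 and 89.6 CPM and at 80.5, 84.1 and 81.1 CPM (-0.12, adjusted p = 0.0230). The call of RACGAP1 was lost without empty vector library 1 (adjusted p = 0.0631) or 3 (0.0661) and without SPNS2 library 1 (0.0887) or 3 (0.0676). ECT2, which activates RhoA at the cleavage furrow, was at 32.0 ± 2.26 and 29.8 ± 0.225 CPM (SD, n = 3 each; -0.10) and passed narrowly without empty vector library 3 (adjusted p = 0.0496). ANLN (anillin), a scaffold of the contractile ring, was at 62.6, 67.6 and 63.5 CPM and at 64.7, 59.6 and 62.8 CPM, with an interval of -0.14 to 0.04.

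TOP2A and MKI67, both widely used as marks of dividing cells, fell. TOP2A, the topoisomerase that untangles sister chromatids (ENSG00000131747.15), went from 264, 268 and 257 to 214, 208 and 213 CPM (log2 fold change -0.31 with an SE of 0.0266, edgeR adjusted p = 1.83e-05). MKI67, the antigen Ki-67, which coats mitotic chromosomes, went from 228, 228 and 225 to 195, 194 and 184 CPM (-0.25 with an SE of 0.0287, adjusted p = 0.000134). Both groups were tight, and the smallest p of the 48 genes belonged to TOP2A. Among the condensin subunits, which compact chromosomes, some were called lower and others were not, and differences between them were not tested. NCAPH fell from 70.2, 64.7 and 65.7 to 54.98, 56.7 and 56.3 CPM (-0.26, adjusted p = 0.000602), and NCAPG fell from 48.1, 47.6 and 46.7 to 44.3, 41.5 and 44.3 CPM (-0.13, adjusted p = 0.0236). NCAPG missed the threshold without empty vector library 1 (adjusted p = 0.0767) or 2 (0.0662) or without SPNS2 library 2 (0.0934). The ATPase subunits SMC2 (-0.07, adjusted p = 0.125) and SMC4 (-0.09, adjusted p = 0.0714) did not pass, though their groups did not overlap.

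Of the genes that carry a cell out of metaphase, 3 of 4 fell. CDC20, the activator of the APC/C that the checkpoint restrains, went from 99.6, 98.7 and 94.9 to 79.9, 82.0 and 79.5 CPM (log2 fold change -0.28 with an SE of 0.0312, edgeR adjusted p = 0.000116). UBE2C, the ubiquitin-conjugating enzyme of the APC/C, went from 36.5, 38.7 and 38.98 to 31.2, 33.1 and 31.5 CPM (-0.25, adjusted p = 0.00146). ESPL1 (separase), the protease that cuts cohesin, went from 48.3, 50.9 and 46.8 to 38.6, 40.3 and 37.9 CPM (-0.32, adjusted p = 0.000266). All 3 had separate groups. PTTG1 (securin), the inhibitor of separase, was at 30.0, 31.8 and 34.7 CPM and at 29.6, 29.3 and 28.6 CPM (-0.14, adjusted p = 0.0891). The groups of PTTG1 did not overlap but nearly met, and it was called without empty vector library 1 (adjusted p = 0.0239).

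**Figure D4:**
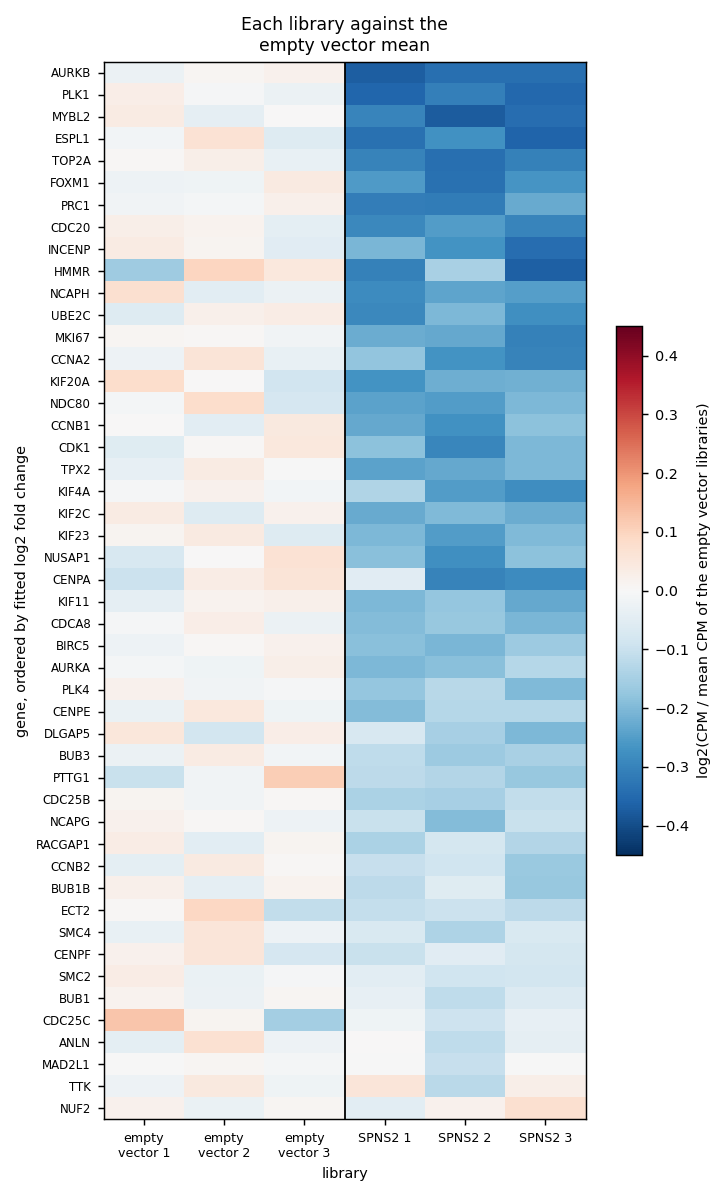
Log2 ratio of CPM in each library to the mean of the empty vector libraries (colour) for the 48 tested genes (rows, ordered by fitted log2 fold change) in the 6 libraries (columns). The SPNS2 columns are blue for most rows and fade towards MAD2L1, TTK and NUF2 at the bottom, while HMMR, CDC25C and PTTG1 show the widest scatter among empty vector libraries.

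Other genes of the same processes, were taken from 7 lists outside the set. Of 149 tested, 45 fell and 5 rose, with a median log2 fold change of -0.07. Beside these counts and those by list below, 12.6% of all features tested were called lower and 11.9% higher. Among genes of spindle and cytokinesis, 17 of 35 fell and 0 rose (median -0.15), among them the motors KIF18B (-0.32) and KIFC1 (-0.28), with PSRC1 (-0.25) and TROAP (-0.19) called as well. KIF15 was not analysed here. Of 36 other centromere, kinetochore and checkpoint genes, 9 fell and 0 rose, including CENPO (-0.25), KNTC1 (-0.24), SPC24 (-0.31) and KNL1 (-0.32). Of 17 condensin and cohesin genes 6 fell and 0 rose: SMC1A (-0.20), a cohesin ATPase, and the condensin subunits NCAPG2 (-0.25), NCAPH2 (-0.25) and NCAPD2 (-0.23) came first by p.

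Of 19 regulators of mitotic entry outside the set, 7 were called lower, beside 12.6% of all features tested, and 2 higher, a count near the 11.9% of all features. The kinases WEE1 and PKMYT1 hold CDK1 inactive. WEE1 fell from 41.4 ± 0.392 to 34.1 ± 1.36 CPM (SD, n = 3 each), and PKMYT1 fell from 67.2, 71.1 and 65.4 to 52.8, 53.5 and 53.8 CPM. The phosphatase CDC25A, which opposes them, fell from 52.2 ± 0.668 to 41.1 ± 1.38 CPM (SD, n = 3 each). NEK6, a mitotic kinase, rose from 127 ± 2.71 to 148 ± 3.13 CPM (SD, n = 3 each), a log2 difference of 0.23 (edgeR adjusted p = 0.000317). The other gene called higher, CDK7, named after its value was seen, had counts of 12, 11 and 18 in empty vector libraries and of 505, 5 and 835 in SPNS2 libraries. Those groups overlap, and the limma voom fit did not call CDK7 (adjusted p = 0.440).

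In the lists for the APC/C, for MuvB and for centrosome duplication, calls were few and near or below the shares over all features (12.6% lower, 11.9% higher), so nothing is read from these counts. Of 17 APC/C genes, 2 fell and 1 rose: UBE2S, which extends ubiquitin chains, fell from 148 ± 5.78 to 123 ± 3.73 CPM (SD, n = 3 each), ANAPC1 fell by 0.11, and ANAPC13 rose by 0.12 on the log2 scale. In that list 1 gene fell when empty vector library 2 or SPNS2 library 2 was left out, and 0 rose in the fits that left out empty vector library 1, 2 or 3, or SPNS2 library 3. Of 13 DREAM, MuvB and pocket protein genes, 2 fell and 1 rose, with a median of 0.03: RBL1 (p107) fell by 0.30 and TFDP1, the partner of E2F factors, by 0.15, while the kinase DYRK1A rose by 0.15 on the log2 scale. The count of risers there was 2 without empty vector library 1 and 0 without empty vector library 2 or SPNS2 library 2. Of 12 centrosome duplication genes, 2 fell (TUBG1 by 0.18 and PCNT by 0.09) and CEP135 rose by 0.11. In each fit with 1 library left out 1 of the 12 fell, and 0 rose except without SPNS2 library 2.

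Genes of DNA replication, G1 and S phase were also lower. Of 44 tested, 34 fell and 0 rose, against 12.6% called lower and 11.9% called higher over all features. Their median log2 fold change was -0.20, and their summed level was 12.3% lower, beside 12.9% for the mitotic set. TYMS and MCM10 had the smallest p there, with log2 fold changes of -0.35 and -0.39. E2F2 was not analysed here. Without empty vector library 1, 1 of the 44 was called higher. The difference between the 2 sets was not tested.

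Of 7 tested CDK inhibitors, which restrain cyclin-dependent kinases, 1 rose and 0 fell. The shares over all features were 11.9% higher and 12.6% lower, so nothing is read from these counts. CDKN1C (p57) rose from 0.890 ± 0.589 to 5.80 ± 0.693 CPM (SD, n = 3 each), a log2 difference of 2.65 (with an SE of 0.342, edgeR adjusted p = 0.000302). CDKN2C (p18), at 91.8 ± 0.750 and 95.6 ± 2.41 CPM, and CDKN1B (p27), at 26.3 ± 3.01 and 24.0 ± 0.157 CPM, did not pass (SD, n = 3 each). 1 of the 7 was called lower without empty vector library 1.

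**Figure D5:**
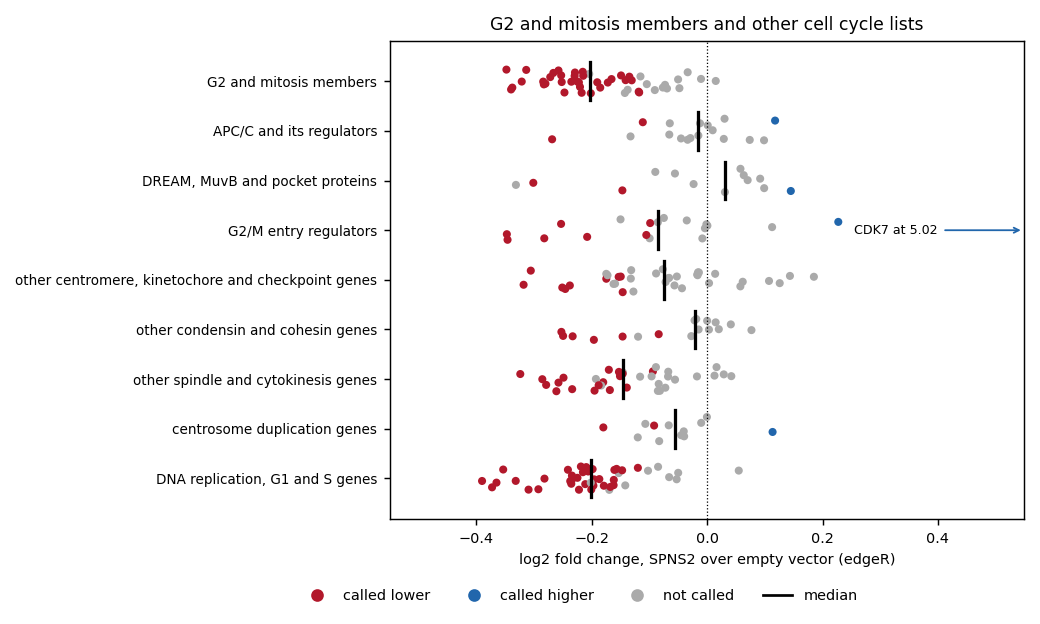
Log2 fold changes (horizontal axis, SPNS2 over empty vector) of the tested genes in the mitotic set and 8 other cell cycle lists (rows); points are genes, red where called lower, blue where called higher and grey otherwise, and black bars are medians. The mitotic set and the replication list have medians of -0.20, the other lists lie between -0.15 and 0.03, and CDK7 lies outside the axis at 5.02.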

How the data were processed

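The deposited table holds estimated counts per Ensembl gene, made by the authors with Salmon per the submitters' processing notes, as whole numbers. The sources used here do not give its version, the genome build or the annotation, and a vector SPNS2 sequence has its own row. Counts were tested in R 4.3.3 with edgeR 4.0.16 (default expression filter, minimum count 10 and minimum total 15, TMM factors 0.993 to 1.01, quasi-likelihood test, 3 against 3 libraries, Benjamini-Hochberg adjustment over all 13308 features, threshold 0.05). Gene names came from the GENCODE 29 annotation by Ensembl ID, or from RefSeq where it gave none, for 34329 of 34370 IDs. CPM are scaled by TMM. Intervals are 95% intervals of the fit. The main edgeR fit was tested on simulated counts, drawn with the spread that edgeR estimated from these libraries. The alternative fits were not tested in that way. The members, gene lists and tests were chosen with earlier results of these data known. All members are covered by value or count, and up to 4 genes with the smallest adjusted p are named from each other list, with called CDK inhibitors. Alternatives were other scalings, filters and thresholds, DESeq2 1.42.0, limma 3.58.1 (voom), a replicate block and leaving out each library. No libraries of a group agreed within sampling noise (chi-square per degree of freedom 3.11 to 6.09).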

Additional observations from a re-analysis of the deposited data

How the results depend on the processing

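The count of members called lower was 31 with DESeq2, 29 at an adjusted p under 0.01 and 39 at 0.10, and 0 members were called higher under any alternative. Leaving out 1 library gave 30 to 33. With 1 library left out, the CDC25C log2 fold change ran from -0.121 to 0.0197 (above 0 without empty vector library 1), the TTK log2 fold change from -0.0449 to 0.0405 (above 0 without library 2 of either group) and the NUF2 log2 fold change from -0.0151 to 0.0461 (below 0 without SPNS2 library 3), with none of these called. Over all features, 3263 were called, and 1723 at 0.01. In the 7 other lists, 5 genes were called higher, against 3 with DESeq2, 3 with limma voom, 3 with the replicate block, 2 at 0.01 and 10 at 0.10, and 2 to 4 with a library left out. The cause was not tested. With the replicate number as a block, 32 members were called lower. Libraries with the same number did not deviate together (correlations 0.0312, 0.0375 and -0.0193). Such correlations cannot tell whether same-numbered libraries were prepared together, and the labels do not say. CCNB2, CENPE and NCAPG lost their calls with DESeq2 (adjusted p = 0.106, 0.105 and 0.0898), and CCNB2 and RACGAP1 with the block (0.0536 and 0.0565). With 3 libraries a group, a member's standard error had a median of 0.0461 on the log2 scale among those not called.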
